A study of Parhyale hawaiensis with 10 samples.

Results

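A set of 356 regions of the Parhyale hawaiensis genome was called accessible in adult legs and in whole embryos but not in embryonic legs. Parhyale hawaiensis is a small amphipod crustacean whose genome is large. All 10 libraries came from the inbred line Chicago-F. Adult legs were uninjured T4 and T5 legs of adult animals (3 libraries). Embryonic legs (3 libraries) were T4 to T8 legs that had been dissected at stages 25 to 26 from pooled embryos, so age and the legs taken differ together. Whole embryos were 1 single embryo each at stages 20, 23 and 24, with no replicate of a stage, and were lysed in a simpler buffer than the embryonic legs, without the needle and filter steps. In 1 further library naked DNA of a whole adult was cut in place of nuclei.

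The assay was ATAC-seq, in which the transposase Tn5 cuts DNA that nucleosomes leave uncovered, so that peaks mark candidate promoters and enhancers. Enhancers are used again in different tissues and at different times, and an element of adult legs can be open earlier in another organ. A whole embryo holds all of its organs, so a peak there does not say in which of them the sequence was open. Tn5 also prefers some sequences, and a peak in naked DNA marks sequence that was cut or recovered more than its surroundings without any chromatin.

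The regions were chosen by the presence of deposited peaks. The peaks of the 9 nuclei libraries were merged into 280946 regions, of which 259017 lay on scaffolds where a peak of any library ends at 10000 bp or beyond. A region was kept when it overlapped a peak in all 3 adult leg libraries and in at least 1 whole embryo, and no peak in any embryonic leg library. These 356 are called shared regions here. They are 22.5% (95% Wilson interval 20.5% to 24.7%) of the 1580 regions that were found in all adult leg libraries and no embryonic leg library, and those 1580 are 0.61% of all regions on these scaffolds. The share was 13.4% when only peaks with a q-value of at most 1e-05 were used, and 14.2% without the stage 24 embryo. The remaining 1224 were absent from every embryonic library and are called adult-restricted regions. A set of 14067 regions found in all 6 leg libraries and in a whole embryo, called common regions, is the other comparison. Counts of peaks by library and peak strength follow from this choice and are described without a test. Naked DNA, the position of summits and the peaks around the regions were not used in it, although nuclei summits and surrounding peaks come from libraries of the rule.

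The lists held 48324 to 76268 peaks in adult legs, 77357 to 119487 in embryonic legs and 60435, 56606 and 119994 in the embryos at stages 20, 23 and 24. The background pileup, the most frequent expected number of overlapping fragments and a measure of relative depth, was 0.252 to 0.482 in adult legs and 0.394 to 0.526 in embryonic legs. It was 0.404, 0.233 and 0.555 at stages 20, 23 and 24. The naked DNA list was the longest, with 161533 peaks and a background pileup of 5.11, far above every nuclei library. Only 19.6% of its peaks reached a q-value of at most 1e-05. Embryonic legs 2, at 0.394, lay below adult legs 1 (0.482) and adult legs 2 (0.451) and above adult legs 3 (0.252). The part of depth and list length in the missing embryonic leg calls was not tested. The labels do not say whether replicates came from separate animals, so the p-values below measure only the spread between these libraries.

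Most shared regions were found in a single embryo (242 of 356), whereas 2771 of 14067 common regions were. Both counts follow from the calls used to choose the regions and were not tested. Stage 24 alone accounted for 130 of the 356, stage 23 alone for 59 and stage 20 alone for 53. Stages 20 and 23 together held 29, stages 20 and 24 held 24, stages 23 and 24 held 30, and 31 regions were called at all 3 stages. Counting every region at each stage, 137 (38.5%) were called at stage 20, 149 (41.9%) at stage 23 and 215 (60.4%) at stage 24. Among all 19536 regions of the 3 adult leg libraries on these scaffolds the shares were 52.1%, 59.1% and 75.2%, and since the rule used these calls nothing is read from the difference. The order of the stages changed with the peaks used. With the strongest 48324 peaks of every list the shares were 55.4%, 63.4% and 30.8% of 655 regions at stages 20, 23 and 24, so that stage 24 was the lowest. With a q-value of at most 1e-05 they were 20.6%, 17.6% and 83.8% of 136 regions.

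Overlap with naked DNA varied with the embryo in which a region was called, in shared and in common regions. Each stage is 1 embryo and 1 list, so stage cannot be told apart from depth, list length or peak calling. Of the regions called at stage 24 alone, 20 of 130 (15.4%, with a 95% Wilson interval of 10.2% to 22.6%) had a naked DNA peak. Of those called at stage 23 alone 18 of 59 (30.5%, 20.3% to 43.1%) did, and of those called at stage 20 alone 22 of 53 (41.5%, 29.3% to 54.9%). The share was 72.4% (21 of 29) for stages 20 and 23, 62.5% (15 of 24) for stages 20 and 24, 30.0% (9 of 30) for stages 23 and 24 and 77.4% (24 of 31, 60.2% to 88.6%) for all 3 stages. Regions called at stage 20 or 23 overlapped naked DNA in 48.2% of cases (109 of 226), against 15.4% at stage 24 alone, a difference of 32.8 percentage points (95% Newcombe interval 23.2 to 41.2). The first group holds every region called at 2 or 3 stages and the second none, so this contrast mixes stage with the number of stages. Common regions had the same order of single stages, with 51.3% at stage 20 alone, 15.9% at stage 23 alone and 12.7% at stage 24 alone. Their share was 77.2% for stages 20 and 23. Unlike in shared regions, their shares for stages 20 and 24 (24.1%) and for all 3 stages (37.0%) lay below that of stage 20 alone. By the number of stages, the share was 24.8%, 54.2% and 77.4% for 1, 2 and 3 stages in shared regions and 15.8%, 25.9% and 37.0% in common regions.

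**Figure D1:**
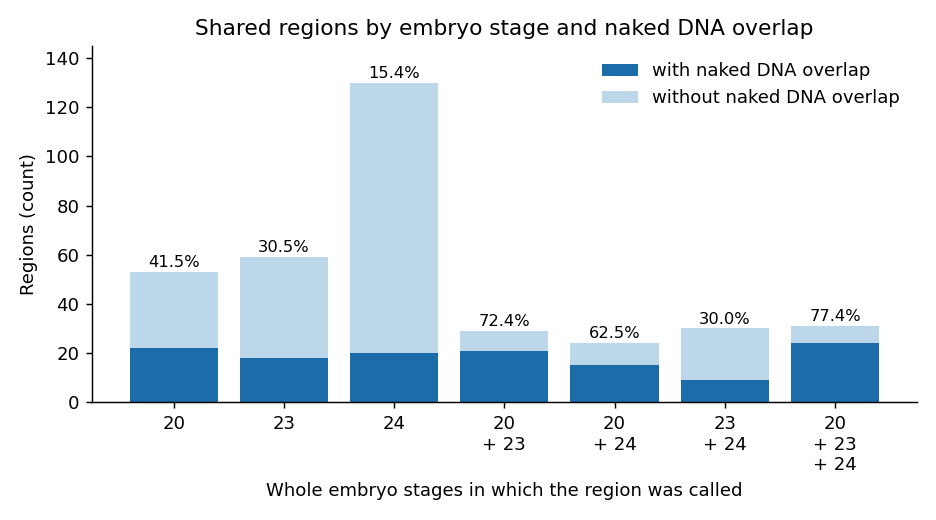
Number of shared regions (count, y axis) by the whole embryo stages in which they were called (x axis), with regions that overlap a naked DNA peak in dark blue and the others in light blue. The percentage above a bar is the share that overlaps naked DNA, which runs from 15.4% at stage 24 alone to 77.4% for regions of all 3 stages.

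Taken as a set, shared regions overlapped naked DNA more often than adult-restricted regions did, but not more often than regions that nearly met the rule. A naked DNA peak overlapped 129 of 356 shared regions (36.2%, 95% Wilson interval 31.4% to 41.4%) and 181 of 1224 adult-restricted regions (14.8%, 12.9% to 16.9%), a difference of 21.4 percentage points (95% Newcombe interval 16.2 to 26.9). Over all regions on these scaffolds the share was 15.7%, so the adult-restricted regions lay near that background and the shared regions above it. That background was not matched for width, with medians of 255 bp in all, 364 bp in adult-restricted and 456.5 bp in shared regions. Regions that nearly met the rule had shares like the shared regions. They were 38.6% of 609 regions with a peak in 1 embryonic leg library and 41.2% of 1225 with peaks in 2. Of 1040 regions that 1 adult leg library missed, 36.5% overlapped. Common regions overlapped in 29.7% of cases, and the difference from them was 6.51 points (1.63 to 11.7); without adult legs 2 it was 1.98 points (−1.02 to 5.15), an interval that includes 0. It was 21.9 points (17.97 to 25.8) with the strongest 48324 peaks of every list and 15.4 points (8.89 to 22.0) without the stage 24 embryo. The regions called at stage 24 alone differed from the adult-restricted regions by 0.597 points (−5.01 to 8.02), an interval that includes 0, whereas those called at stage 20 or 23 differed by 33.44 points (26.7 to 40.2). The stage split was chosen after the values were seen, and its group of stage 20 or 23 holds every region called at more than a single stage. Naked DNA is 1 library and regions are not replicates, so these intervals cover counting error only.

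The naked DNA peaks in shared regions were also strong ones. Fold is the authors' ratio of summit pileup to expected pileup, read here with 1 added to both. The median fold of these naked DNA peaks was 5.56 (middle 50%, 3.01 to 10.8) in shared regions. It was 2.65 (2.40 to 3.11) in adult-restricted and 4.26 (2.72 to 11.3) in common regions. Within the naked DNA list these medians stand at percentile 92.2, 47.8 and 88.6. A naked DNA peak in the top 10% of its list by fold overlapped 72 shared regions (20.2%) and 16 adult-restricted regions (1.31%), a difference of 18.9 points (15.0 to 23.4). The share was 14.4% in common regions, a difference of 5.79 points (1.90 to 10.3), and 3.37% over all regions. Of those 72 regions, 67 were called at stage 20 or 23, with or without other stages, and 5 at stage 24 alone. Shared regions were wider (median 456.5 bp) than adult-restricted regions (364 bp). In a fixed window of 150 bp on each side of the median adult summit, naked DNA overlapped 35.4% of shared and 13.8% of adult-restricted regions, a difference of 21.6 points (16.4 to 27.0). It overlapped 26.6% of common regions in that window, a difference of 8.79 points (3.95 to 13.9).

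**Figure D2:**
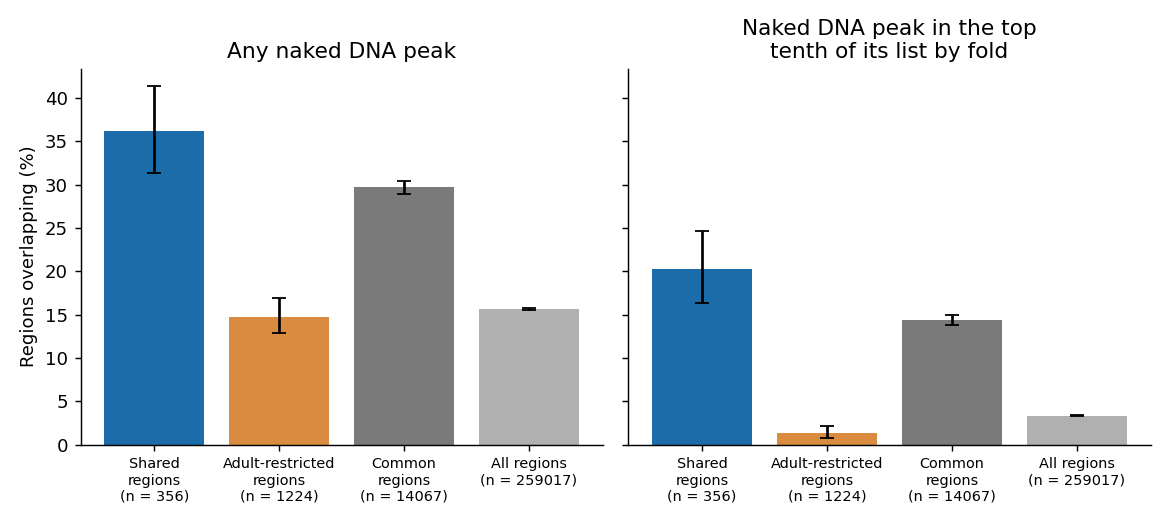
Share of regions (percent, y axis) that overlap any naked DNA peak (left) or a naked DNA peak in the top 10% of its list by fold (right), for shared, adult-restricted, common and all regions on the same scaffolds. Error bars are 95% Wilson intervals; 36.2% of shared and 14.8% of adult-restricted regions overlap any such peak, and 20.2% and 1.31% a strong one.

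Peak strength placed the shared regions in the middle of the adult leg lists. The median fold was 6.55, 5.87 and 5.73 in adult legs 1, 2 and 3, which are percentiles 58.9, 57.5 and 58.2 of these lists. Adult-restricted regions had percentiles of 61.8, 65.5 and 59.8, and common regions 84.4, 78.1 and 78.7. In the embryos the shared regions stood lower, at percentiles 43.9, 49.8 and 44.6 at stages 20, 23 and 24, where common regions stood at 81.9, 83.2 and 84.96. The number of overlapping fragments at the summit, recovered from fold and p-value, had a median of 12, 9 and 8 in adult legs 1 to 3 and of 6, 5 and 10 at stages 20, 23 and 24. The calls at stages 20 and 23 thus rested on fewer fragments than the adult calls, and the stage 24 pileups may be on another scale.

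A q-value of at most 1e-05 was reached by 24 of the 137 regions called at stage 20 (17.5%), by 34 of the 149 at stage 23 (22.8%) and by 131 of the 215 at stage 24 (60.9%). All peaks of these 3 lists reached it in 27.0%, 27.4% and 62.7% of cases. Of the 24 strong calls at stage 20, 23 lay in regions that overlap naked DNA and 1 in a region that does not. At stage 23 the counts were 18 and 16, and at stage 24 they were 35 and 96. In all 3 adult leg libraries and at least 1 embryo together, 72 shared regions (20.2%) reached a q-value of at most 1e-05, of which 16 overlapped naked DNA.

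**Figure D3:**
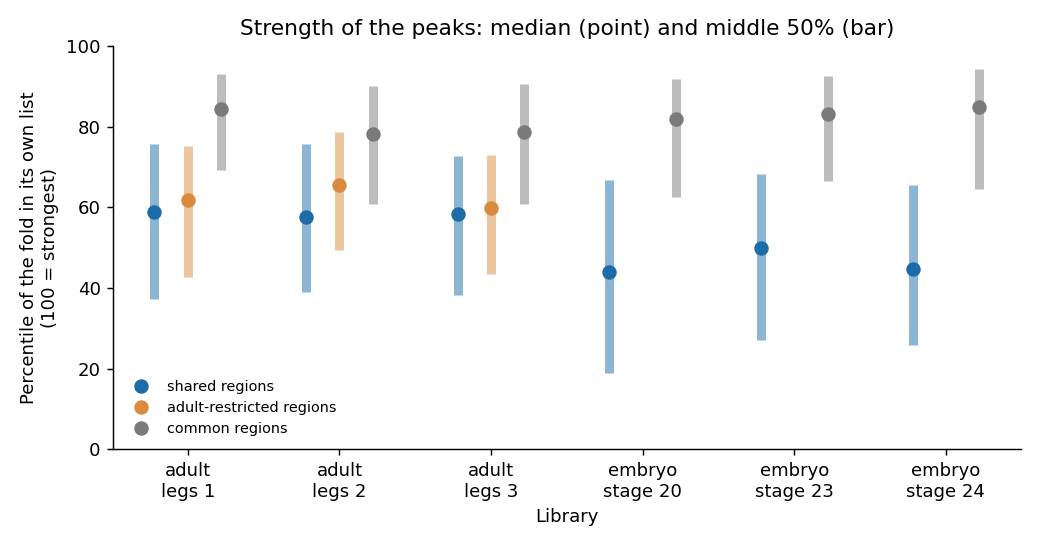
Percentile of the deposited fold within its own peak list (y axis, 100 is the strongest) for shared, adult-restricted and common regions in each adult leg and whole embryo library (x axis). Points are medians and bars the middle 50% of the regions called there; shared regions have medians of 57.5 to 58.9 in adult legs and 43.9 to 49.8 in embryos, below the common regions in every library shown.

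Shared regions with and without naked DNA overlap differed in the surroundings of their adult peaks. The expected pileup, divided by the background of the library, had medians of 1.00, 1.15 and 1.26 in adult legs 1 to 3 for the 129 regions with overlap, against 2.12, 2.03 and 2.36 for the 227 without. Adult-restricted regions had 2.93, 2.64 and 3.02. The median fold was 5.40, 5.65 and 5.04 with overlap and 7.40, 6.14 and 6.35 without it. The regions with naked DNA overlap thus had lower median folds and lower expected pileups in every adult leg library. These values come from the libraries of the rule and were not tested.

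The summits of embryo and adult peaks were compared to see whether both libraries marked the same position. An embryo peak directly overlapped a peak of every adult leg library in 330 of 356 shared regions. An overlap with at least 1 adult peak was present in all of them, which the merging of the peaks fixed in advance. In each region the distance between strongest summits was the median over all pairs of an embryo and an adult leg library called there. The median of this distance over regions was 72.5 bp (middle 50%, 30.0 to 137), and it was within 100 bp in 226 regions (63.5%). Common regions had a median of 39.5 bp (20.0 to 82.5) although they are wider, at 604 bp. The distance was 71.0, 73.0 and 57.0 bp at stages 20, 23 and 24. Between pairs of adult leg libraries the same regions had medians of 31.5 to 37.0 bp. Those are distances of single pairs, without a median over pairs in a region, so the measures are not alike. The distance between embryo and adult summits was 94.0 bp in regions with naked DNA overlap and 62.0 bp in those without. At a q-value of at most 1e-05 it was 35.5 bp, over the 136 regions that the rule then kept. The summit in naked DNA lay a median of 95 bp from the adult summits of shared regions and 217 bp from those of adult-restricted regions. The widest separation, 875 bp, was on phaw_50.283826 at 65508807 to 65509872, and 12 regions exceeded 300 bp.

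The calls of each leg library were also described with that library set aside. These shares restate how many regions the rule gained or lost by 1 library, so they carry no test. When the rule was applied to 2 adult leg libraries, the library set aside called 65.3% (adult legs 1), 40.6% (adult legs 2) and 51.9% (adult legs 3) of the regions found in an embryo. It called 72.7%, 51.4% and 54.0% of the regions found in no embryo. The mean was 52.6% ± 12.4 with and 59.4% ± 11.6 without an embryo (SD, n = 3 each).

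Embryonic legs 1, 2 and 3 called 29.1%, 27.6% and 47.9% of the regions that were found in an embryo, in all adult legs and in neither of the other embryonic leg libraries. They called 7.34%, 8.79% and 18.2% of the corresponding regions found in no embryo. The mean was 34.9% ± 11.3 against 11.5% ± 5.92 (SD, n = 3 each). The regions not called there are the 356 shared regions and the 1224 adult-restricted regions themselves. These shares were chosen after the values were seen. The library set aside still took part in merging the regions.

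**Figure D4:**
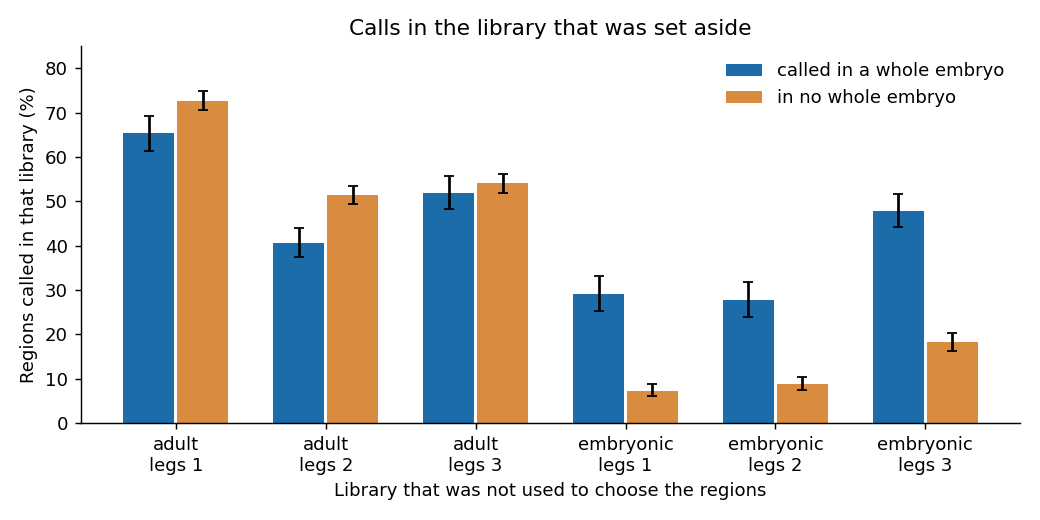
Share of regions (percent, y axis) called in the library that was set aside (x axis), for regions found in a whole embryo (blue) and in no whole embryo (orange); error bars are 95% Wilson intervals. Embryonic leg libraries called 27.6% to 47.9% of the blue and 7.34% to 18.2% of the orange regions, while adult leg libraries called 40.6% to 65.3% and 51.4% to 72.7%.

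The rule has sharp edges. A further 609 regions met it except for a peak in 1 embryonic leg library, 327 of them in embryonic legs 3, the longest of these lists. Their peaks there had median folds of 5.15, 5.35 and 5.75 in embryonic legs 1, 2 and 3. Naked DNA overlapped 38.6% of them. Another 1040 regions met it except that 1 adult leg library had no peak, most often adult legs 2 (521). Just inside the overlap limit was the region on phaw_50.283852 at 22463399 to 22463691, 16 bp from the nearest embryonic leg peak, and 5 shared regions lay within 100 bp of one. The scaffold minimum left out 84 regions on 84 scaffolds, of which 61 (72.6%) overlapped naked DNA. The region on the shortest scaffold kept, phaw_50.001127 at 258 to 733, was called at stages 20 and 23 and overlapped naked DNA with a fold of 12.4, and the last peak of that scaffold ends at 12415. On the longest scaffold left out, phaw_50.002883, the last peak ends at 6476. Its region at 6077 to 6476 was called at stage 24 and had folds of 13.7, 9.83 and 10.8 in adult legs 1, 2 and 3.

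The peaks surrounding the shared regions were compared between adult and embryonic legs. These peaks did not enter the rule, but the places were chosen by calls of the same leg libraries. The comparison is therefore not independent of the rule. Of the peaks of adult legs 1, 2 and 3, 0.420%, 0.493% and 0.430% lay within 10 kb of a shared region without overlapping one. Embryonic legs 1, 2 and 3 had 0.361%, 0.365% and 0.343%. By this share of its list, every adult leg library lay above every embryonic leg library. The counts of peaks were not ordered in this way. They were 320, 244 and 208 in adult legs 1, 2 and 3 and 315, 282 and 410 in embryonic legs 1, 2 and 3, whose lists are longer. The mean share was 0.448% ± 0.0396 in adult and 0.356% ± 0.0114 in embryonic legs (SD, n = 3 each), a ratio of 1.26. An exact permutation test, two-sided, gave p = 0.1, which is the smallest value for 3 libraries against 3. Within 50 kb the means were 2.04% ± 0.0600 and 1.64% ± 0.0528 (SD, n = 3 each), with the same exact p of 0.1. Around adult-restricted regions adult legs had 1.87% ± 0.212 and embryonic legs 1.86% ± 0.121 of their peaks within 10 kb (SD, n = 3 each), with p = 1 in the same exact test. Adult legs 1 lay above all embryonic leg libraries there, at 2.11%, and adult legs 2 and 3 below them, at 1.77% and 1.72%. Around common regions the direction was the opposite, with 10.2% ± 2.67 in adult and 11.99% ± 0.596 in embryonic legs within 10 kb, and 31.3% ± 8.17 and 38.6% ± 0.410 within 50 kb (SD, n = 3 each; exact permutation p = 0.4 at both distances). The difference between the kinds of region was not tested. The embryos at stages 20, 23 and 24 had 0.344%, 0.307% and 0.318% of their peaks near shared regions, below every adult leg library.

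Restricted to the 227 shared regions without naked DNA overlap, a choice made after the values were seen, the means were 0.319% ± 0.0207 in adult and 0.257% ± 0.00594 in embryonic legs (SD, n = 3 each), again with no overlap between the groups and an exact permutation p of 0.1. For the 129 regions with naked DNA overlap they were 0.128% ± 0.0327 and 0.0988% ± 0.00675, with an exact permutation p of 0.3 (SD, n = 3 each) and overlapping libraries.

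**Figure D5:**
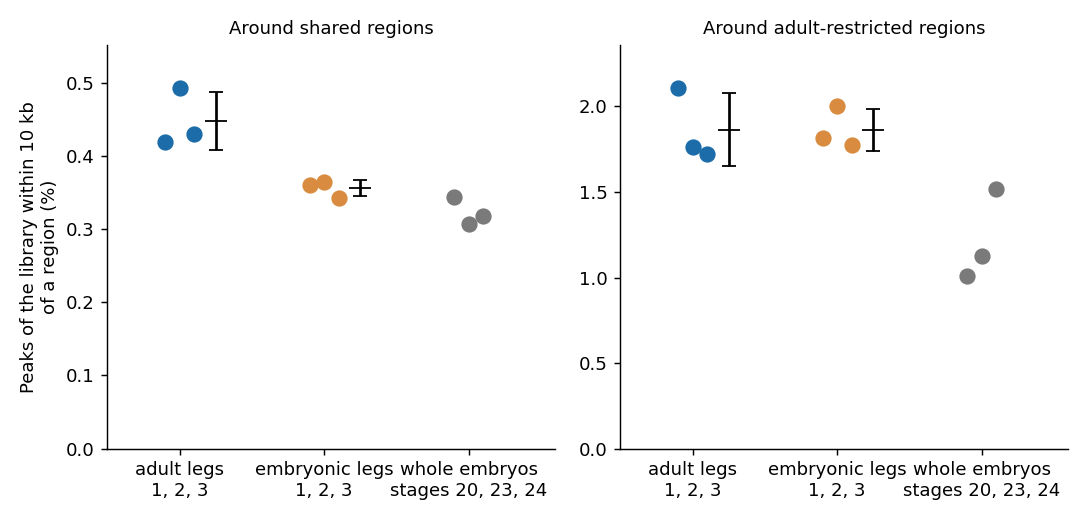
Share of the peaks of each library (percent, y axis) that lie within 10 kb of a shared region (left) or an adult-restricted region (right) without overlapping one, for adult legs, embryonic legs and whole embryos (x axis, points in the order named). Bars give mean and SD of 3 libraries; the adult leg libraries (0.420% to 0.493%) lie above the embryonic leg libraries (0.343% to 0.365%) on the left; on the right 1 adult leg library (2.11%) lies above and 2 (1.77% and 1.72%) lie below all embryonic leg libraries.

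The shared regions were spread over many scaffolds. They lay on 137 scaffolds, with at most 14 on one of them (phaw_50.283823c, of 568 regions of all 3 adult leg libraries there). None had another shared region within 10 kb and 24 (6.74%, 95% Wilson interval 4.57% to 9.83%) had one within 100 kb. No expected share for a set of this size was computed, so these counts do not say whether the regions were scattered. An adult-restricted region lay within 100 kb of 72 shared regions (20.2%), whereas 382 of 1224 adult-restricted regions (31.2%) had another of their own kind within that distance, a difference of −11.0 points (95% Newcombe interval −15.7 to −5.84). That interval treats regions as independent, which neighbours of the same kind are not. The kinds of region were not matched for scaffold length. The nearest embryonic leg peak was a median of 5.76 kb away from shared and 3.40 kb away from adult-restricted regions, and the nearest region of all 6 leg libraries 38.9 kb and 27.5 kb away.

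Of the 353 windows of 100 kb that held a shared region, 350 held 1 and 3 held 2. The window at 5.9 to 6.0 Mb of phaw_50.000289a held 2 shared regions and 1 region of all 6 leg libraries among its 13 regions. The window at 1.7 to 1.8 Mb of phaw_50.282976a held 2 among 14, one called at stage 20 and the other at stage 24. The window at 17.9 to 18 Mb of phaw_50.283850a held 2 among 24, both called at stage 24, beside 5 adult-restricted regions and no region of all 6 leg libraries. The first windows with 1 shared region, in order of scaffold name, were at 0 to 0.1 Mb of phaw_50.000041 and at 6.7 to 6.8 Mb of phaw_50.000135b, both with a region of stage 24.

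Individual regions were ranked by the lower of 2 values, the lowest fold percentile among the 3 adult leg lists and the highest among the embryo lists. The first 2 without naked DNA overlap were neighbours, 20727 bp apart on phaw_50.000289a. The region at 5924662 to 5925460 (799 bp) had folds of 10.7, 11.1 and 9.42 in adult legs 1, 2 and 3, with 30, 42 and 25 fragments at the summit. Its fold was 3.90 at stage 23, from 5 fragments, and 10.1 at stage 24, from 17 fragments. The strongest adult and embryo summits lay between 5925086 and 5925148, and the nearest embryonic leg peak was 11163 bp away.

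Its neighbour at 5903385 to 5903934 had the higher folds in adult legs, 14.6, 15.8 and 13.0 in libraries 1, 2 and 3, from 40, 58 and 40 fragments. It was called at stage 20 with a fold of 4.12 and at stage 24 with a fold of 8.86. The nearest embryonic leg peak was 29835 bp away. Both neighbours thus stood in the upper 20% of every adult leg list, and no embryonic leg library had a peak at either.

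The next regions were called in adult legs and at stage 24 alone. On phaw_50.020523d at 5117429 to 5117869 the folds were 12.7, 9.21 and 13.3 in adult legs 1, 2 and 3 and 11.0 at stage 24, with embryo and adult summits a median of 12 bp apart. On phaw_50.283468a at 18321462 to 18321716 they were 14.1, 13.5 and 9.74 in adult legs and 8.05 at stage 24. On phaw_50.283863b at 47049534 to 47050084 they were 12.1, 8.75 and 8.64 in adult legs and 7.83 at stage 24, with summits a median of 3 bp apart. In all 3 the peaks of both kinds of library rested on 13 or more fragments.

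The remaining regions of this ranking without naked DNA overlap had mean adult folds of 8.33 to 10.9. The region on phaw_50.283861a at 5551304 to 5551754 was called at all 3 stages, with folds of 3.50, 5.76 and 6.25 at stages 20, 23 and 24, and had a mean fold of 10.9 ± 3.52 in adult legs (SD, n = 3). The region on phaw_50.282695f at 8839332 to 8840133 was called at stage 23 alone (fold 5.64) and averaged 10.1 ± 2.54 in adult legs (SD, n = 3). The other 3 were called at stage 24 alone, on phaw_50.283743b at 21710 to 22108 (10.6 ± 0.322), on phaw_50.283743a at 3366933 to 3367184 (8.33 ± 0.0687) and on phaw_50.283468a at 19335926 to 19336539 (9.06 ± 2.25; mean adult fold ± SD, n = 3 each). The first of these lay 500 bp and the second 1624 bp from an embryonic leg peak. The leading region of stage 20 alone, on phaw_50.007301a at 6667334 to 6667752, had folds of 13.2, 10.6 and 8.41 in adult legs and 4.72 at stage 20, where 6 fragments overlapped.

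Of the regions that overlap naked DNA, the first was on phaw_50.283869c at 6384674 to 6384961. Its folds were 12.7, 10.5 and 9.01 in adult legs 1, 2 and 3 and 11.5, 7.74 and 7.07 at stages 20, 23 and 24, and the embryo and adult summits lay a median of 7 bp apart. The naked DNA peak there had a fold of 5.36 with its summit at 6385351, outside the region, and an embryonic leg peak lay 263 bp away. The next, on phaw_50.000217 at 2007391 to 2007973 and on phaw_50.283829b at 3626725 to 3627471, had mean adult folds of 8.81 ± 2.11 and 9.59 ± 2.38 (SD, n = 3 each) and naked DNA folds of 2.23 and 3.01. The leading region of stages 20 and 23, on phaw_50.283829b at 9299257 to 9299581, had folds of 6.75, 6.89 and 7.19 in adult legs and 6.41 and 8.11 at stages 20 and 23, from 8 to 9 fragments each. Naked DNA had a fold of 9.98 there, and its summit at 9299435 lay among the nuclei summits, between 9299413 and 9299451.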

How the data were processed

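Each of the 10 libraries has its own deposited peak list. Per the submitters' processing notes the tools were MACS2 2.2.7.1, Bowtie2 2.5.4, Picard, bedtools 2.31.1 and SAMtools 1.21, with no role stated. The genome build, the control and the calling settings are not stated in these sources; scaffolds are named as in the files. The deposited fold is the authors' ratio of summit to expected pileup, read here with 1 added to both when pileups were recovered. The p-values and q-values were deposited by the authors as −log10, and their deposited score was not used. Folds are not on a common scale across lists, so percentiles within a list were used. Pileups were recovered from fold and p-value for 99.4% to 100% of the peaks of a list, with a tolerance of 0.002 on −log10 p; the list of stage 24, whose narrowest peak is exactly 200 bp, may be on another scale.

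Peaks that overlap or touch were merged, and a region was present where a peak overlapped it by at least 1 bp. Differences between libraries were tested by exact permutation, two-sided; shares carry 95% Wilson and differences 95% Newcombe intervals. Named regions were the 10 without and the 3 with naked DNA overlap that led the ranking, the first of each combination of stages, 5 windows of 100 kb and the regions at the scaffold minimum. The members and measures were chosen with earlier results of these data known. The planned description of sequence was not made, since no genome was used here. The software was scipy 1.17.1, pandas 2.3.3, numpy 2.4.6 and matplotlib 3.10.9 under Python 3.11.15. Merging was checked against bedtools 2.31.1 and tested on simulated data. The labels give no link between adult and embryonic legs of the same replicate number, and the numbers were not used as pairs.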

Additional observations from a re-analysis of the deposited data

How the results depend on the processing

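The number of shared regions depended on the lists. It was 136 at a q-value of at most 1e-05, 655 with the strongest 48324 peaks of every list, 233 without peaks that overlap naked DNA and 224 without the stage 24 embryo, against 356 as reported; of the 356, 72, 155, 227 and 224 were overlapped by these. Without 1 replicate it was 492 to 875: 683 without embryonic legs 3, and 541, 875 and 689 without adult legs 1, 2 and 3. The naked DNA difference from adult-restricted regions was 0.597 points for regions of stage 24 alone, a split added after seeing the data, and otherwise kept its sign with an interval above 0, at 15.3 to 28.5 points without 1 replicate. The difference from common regions was 1.98 to 15.3 points without 1 replicate, the lowest without adult legs 2. The summit distance was 35.5, 58.5, 62.0, 61.0, 62.0 and 86.0 bp at the stricter q-value, with the strongest peaks, without peaks that overlap naked DNA, with no scaffold minimum, without stage 23 and without stage 24, and 63.5 to 74.0 bp without 1 replicate. Shared regions with another within 100 kb made up 4.41% at the stricter q-value, 12.7% with the strongest peaks, 3.96% without stage 20 and 7.72% to 18.1% without 1 replicate. The causes were not tested. Adult legs exceeded embryonic legs in the share of their peaks near shared regions in every alternative run, each with places chosen by calls of the same leg libraries. Across regions, the deviations of adult and embryonic leg libraries of the same number had r of −0.132, −0.118 and −0.0173 for numbers 1, 2 and 3. For different numbers r was −0.0436 to 0.157. Deviations were taken from the mean of each kind of leg, which ties these r together. They therefore cannot show whether libraries of the same number shared a batch. With a replicate block by that number the difference of 0.0915 points had an exact sign-flip permutation p of 0.25, the smallest possible. The naked DNA differences have no value once peaks that overlap naked DNA are left out. An overlap of 50% could change naked DNA only, since nuclei peaks lie inside their regions.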
